A study of Mus musculus with 169 samples.

Results

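Microglia of 4-month-old Grn knockout mice were compared with microglia of 4-month-old wild-type mice across all genes measured on a single-color expression array. The comparison took the 3 arrays labelled Grn knockout (KO, Grn-/-) and the 4 labelled wild type (WT, Grn+/+) at that age, 7 of the 169 samples of the series and 7 of its 15 microglia arrays. All mice were on the C57B/6J background and differed in the labels by genotype alone. The microglia had been isolated by Percoll gradient and by sorting with antibodies to CD11b, CD45 and Ly6G, the last a neutrophil marker. Total RNA was labelled with Cy3. Per the file headers all 7 arrays share 1 barcode and 1 scan, with 1 as the first number after the barcode on the WT arrays and 2 on the KO arrays, so genotype and that number cannot be told apart. The labels do not say whether each array holds the cells of 1 animal or of several, so the p-values below measure only the spread between these samples.

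Grn encodes progranulin, a secreted glycoprotein that is taken up by cells, carried to lysosomes through sortilin or through prosaposin, and cleaved there into granulins. In the brain it is made mainly by microglia and neurons. Loss of one copy of the human gene causes a form of frontotemporal dementia, and loss of both causes a lysosomal storage disease. Microglia without progranulin are known for lysosomal and lipid defects and for raised complement expression with age.

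Levels are given as log2 of the scanner's background-subtracted signal divided by the array's own 75th percentile, so 0 is the 75th percentile of that array and a difference of 1 is a doubling. Signals under a common floor of -5.81 were set to it. Between 67.1% and 76.9% of spots were well above background and none was saturated. One probe was kept for each gene, which left 30006 features tested, 16817 of the 30008 kept having a gene symbol. The 12 microglial identity markers (among them Csf1r, Cx3cr1, P2ry12 and Tmem119) were all measured on all 7 arrays. Their summed level ranged from 1502 to 1926 times the 75th percentile on the WT arrays and from 1482 to 2315 on the KO arrays, so the groups overlapped. WT replicate 2 stood apart in pericyte and fibroblast markers, whose summed level was 29.7 there and 1.96 to 2.77 on the other WT arrays. Sex is not given in the labels. Xist, the RNA of the inactive X chromosome, read 1.42 and 1.36 on WT replicates 1 and 2 and 1.28 on KO replicate 1, and -4.22 or less on the other 4 arrays. The Y-linked gene Eif2s3y was at or within 0.1 of the floor on WT replicates 1 and 2, read 4.50 to 5.05 on WT replicates 3 and 4 and KO replicates 2 and 3, and read 2.14 on KO replicate 1, the only array with both transcripts. These transcripts were thus not balanced between the groups, and the leading counts below were also taken on WT replicates 3 and 4 against KO replicates 2 and 3 alone, a choice made after seeing the data. With 2 arrays a side far more features separate: 24.2% were higher and 19.4% lower on both of those KO arrays than on both WT arrays. With 1 array left out, 6.96% to 11.7% were higher and 9.2% to 13% lower on all remaining KO arrays. For the same probe a separation cannot be lost when arrays are left out, so a larger count on fewer arrays is not stronger evidence.

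The targeted gene separated the groups by more than any other. Grn read 6.32, 6.26, 6.13 and 6.30 on the WT arrays and -3.36, -2.90 and -2.06 on the KO arrays. All 3 KO arrays lay far below all 4 WT arrays, although the signal stayed above background on each. Grn fell by 9.03 on the log2 scale (SE 0.31, adjusted p = 0.000199, limma with Benjamini-Hochberg adjustment), a 522-fold difference, and passed the test with any 1 of the 7 arrays left out. The labels of all 7 arrays and the level of the targeted transcript thus matched.

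In the main fit, the changes beyond Grn that passed the test were few and mostly upward. At an adjusted p under 0.05, 29 of 30006 features passed (0.0966%), of which 24 rose (0.08%) and 5 fell (0.0167%). With normexp background correction 52 passed, 50 of them rising. With a gene symbol, 21 genes rose and 3 fell (Grn, Klrd1 and Nkx2-2). An unadjusted p under 0.05 was reached by 4171 features (13.9%). Of the 29, 8 were well above background on all 7 arrays and 9 on no WT array, where the floor itself holds the WT spread down. The count turned on single arrays: it was 7, 47, 20 and 3 without WT replicate 1, 2, 3 and 4, and 6, 4 and 483 without KO replicate 1, 2 and 3. Without KO replicate 3, 388 of the 483 were lower in KO. The upward lean depended on the setting too. With only probes above background on all 7 arrays 3 rose and 2 fell, and without a filter 5 rose and 3 fell. Leaving out WT replicate 1 gave 3 that rose and 4 that fell. Of all features 5.31% were higher and 8.2% lower on all KO arrays than on all WT arrays. On the 4 arrays with Y-linked transcripts and low Xist no feature passed by limma, with 2317 at an unadjusted p under 0.05. Not even Grn passed there, so with 2 arrays a side this count cannot tell whether the other changes hold.

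Npr3 and Lox rose from near the floor, on which the size of their differences depends. Npr3, the receptor that clears natriuretic peptides, read -5.54, -5.81, -4.87 and -5.81 on the WT arrays and -1.89, -0.70 and -0.47 on the KO arrays. It was near the floor throughout WT and rose by 4.49 (SE 0.40, adjusted p = 0.0219). Lox, the lysyl oxidase that crosslinks collagen and elastin, read -5.81, -5.81, -4.76 and -5.81 on the WT arrays and -0.92, -1.89 and -1.44 on the KO arrays. Lox rose by 4.13 (SE 0.36, adjusted p = 0.0219). Other proteins of the matrix or of secreted signals among the genes that rose were Fbn1 (fibrillin, by 2.32), Sfrp1 (a secreted Wnt antagonist, with every WT array at the floor), Chia1 (acidic chitinase, by 3.25) and Ntf5 (a neurotrophin, by 1.90).

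Slc4a5, a sodium bicarbonate cotransporter of choroid plexus epithelium, read -3.60, -3.18, -3.26 and -4.10 on the WT arrays and -0.39, -0.34 and 0.31 on the KO arrays. It was above background on all 7 arrays and rose by 3.39, a 10.5-fold difference (SE 0.30, adjusted p = 0.0219). Trpm6, a channel and kinase for magnesium uptake, was at the floor on all 4 WT arrays and read -3.00, -2.62 and -2.99 on the KO arrays. Its level was at least 7.67-fold higher in KO (adjusted p = 0.00436), where such a bound sets the KO mean against WT values held at the floor. Trpm6 met the filter through its KO arrays alone, and its p-value rests on a WT spread that the floor holds down. Slco1b2, an organic anion transporter, rose by 2.48 (SE 0.19, adjusted p = 0.0159).

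Strip2, of the striatin-interacting phosphatase and kinase complex, read -3.10, -1.85, -2.12 and -2.52 on the WT arrays and 0.55, 1.18 and 1.56 on the KO arrays, a rise of 3.50 (SE 0.37). A second Strip2 probe differed in the other direction. Mapk4, an atypical MAP kinase, rose by 3.27 (SE 0.31) and Etv4, an ETS transcription factor, by 2.87 (SE 0.33), both with all arrays above background. Sytl2, a Rab27 effector of vesicle release, was at least 13.8-fold higher in KO and Dusp13, a dual-specificity phosphatase, at least 11.6-fold, both with every WT array at the floor. Hspb8 (a small heat shock protein) rose by 3.22, Gpd1l (a glycerol-3-phosphate dehydrogenase relative) by 3.10 and Cd300lb (an activating receptor of myeloid cells) by 2.72. The gene 1700013F07Rik rose by 2.25, and 9130008F23Rik was at least 7.07-fold higher in KO. Sfrp1 was at least 5.97-fold higher in KO and Ccdc30 at least 7.03-fold.

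Spag16, a protein of the central apparatus of motile cilia, was at the floor on all 4 WT arrays and read -2.57, -2.67 and -2.21 on the KO arrays, at least 10.1-fold higher (adjusted p = 0.0032). Spag16, like the other features with no WT array above background, met the filter on low signal through its 3 KO arrays alone, and its WT spread is 0 by the floor. Genes of motile cilia often carry an X-box, the site of RFX factors, near their start. The promoter windows of Spag16, of Ccdc30, which also rose, and of the ciliary gene Tekt1, higher on all 3 KO arrays, are shown because each holds the core of that site. The table has 2 further windows for Ccdc30 and 1 for Tekt1, at other starts, and none of these 3 holds it. They run from 250 bases before to 50 after the start (RefSeq, GRCm38.p6) and are written 5′ to 3′ on the gene's strand, with GTTGCC or its reverse complement in capitals.
Spag16 chr1:69826720-69827019 (plus strand): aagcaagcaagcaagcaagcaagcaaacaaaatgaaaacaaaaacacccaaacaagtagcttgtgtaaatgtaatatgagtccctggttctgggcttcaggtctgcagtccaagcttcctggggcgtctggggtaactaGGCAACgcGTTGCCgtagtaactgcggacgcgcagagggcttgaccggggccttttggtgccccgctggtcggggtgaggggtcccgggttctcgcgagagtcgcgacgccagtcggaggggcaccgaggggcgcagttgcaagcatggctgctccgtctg
Ccdc30 chr4:119415472-119415771 (minus strand): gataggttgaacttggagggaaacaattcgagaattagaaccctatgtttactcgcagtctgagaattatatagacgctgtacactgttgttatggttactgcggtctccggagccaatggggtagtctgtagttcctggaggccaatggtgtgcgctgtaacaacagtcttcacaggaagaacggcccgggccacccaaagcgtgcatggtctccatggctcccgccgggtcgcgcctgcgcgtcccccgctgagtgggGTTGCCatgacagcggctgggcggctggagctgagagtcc
Tekt1 chr11:72361833-72362132 (minus strand): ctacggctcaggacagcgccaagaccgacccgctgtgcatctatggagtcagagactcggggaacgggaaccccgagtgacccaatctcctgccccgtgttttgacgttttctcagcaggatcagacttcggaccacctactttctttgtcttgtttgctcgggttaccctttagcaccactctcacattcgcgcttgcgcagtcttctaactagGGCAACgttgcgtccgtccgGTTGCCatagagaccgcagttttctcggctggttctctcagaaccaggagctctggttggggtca
The windows shown for Spag16 and Tekt1 held the core in both orientations, and that for Ccdc30 held it on 1 strand. Either strand of GTTGCC was found for 4 of the 15 genes that rose and have a window (26.7%) and for 4 of 9 ependymal marker genes (44.4%). It was found for 3 of 12 choroid plexus marker genes (25.0%) and 1 of 27 lysosomal hydrolase genes (3.7%). Of all 27025 genes with a window 3821 held it (14.1%). A match is a description of these letters and not a measured site.

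The genes that fell were 2 besides Grn. Klrd1, the CD94 receptor of natural killer cells, read 0.68, 1.54, 1.41 and 1.03 on the WT arrays and -1.59, -0.92 and -1.25 on the KO arrays. It fell by 2.42 (SE 0.28, adjusted p = 0.0441) with all arrays above background. Nkx2-2, a homeobox factor of the oligodendrocyte lineage, read -1.79, -2.25, -1.98 and -1.96 on the WT arrays and -3.93, -3.79 and -4.05 on the KO arrays. It fell by 1.93 (SE 0.19, adjusted p = 0.0231). The groups did not overlap for either gene. Of the 5 features without a symbol that passed, AK042795 was at least 9.69-fold higher in KO, AK021377 rose by 2.86, an intergenic probe of chromosome 2 was at least 5.8-fold higher, the transcript ENSMUST00000099391 was at least 9.75-fold lower with no KO array above background, and ENSMUST00000130582 fell by 2.71.

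**Figure D1:**
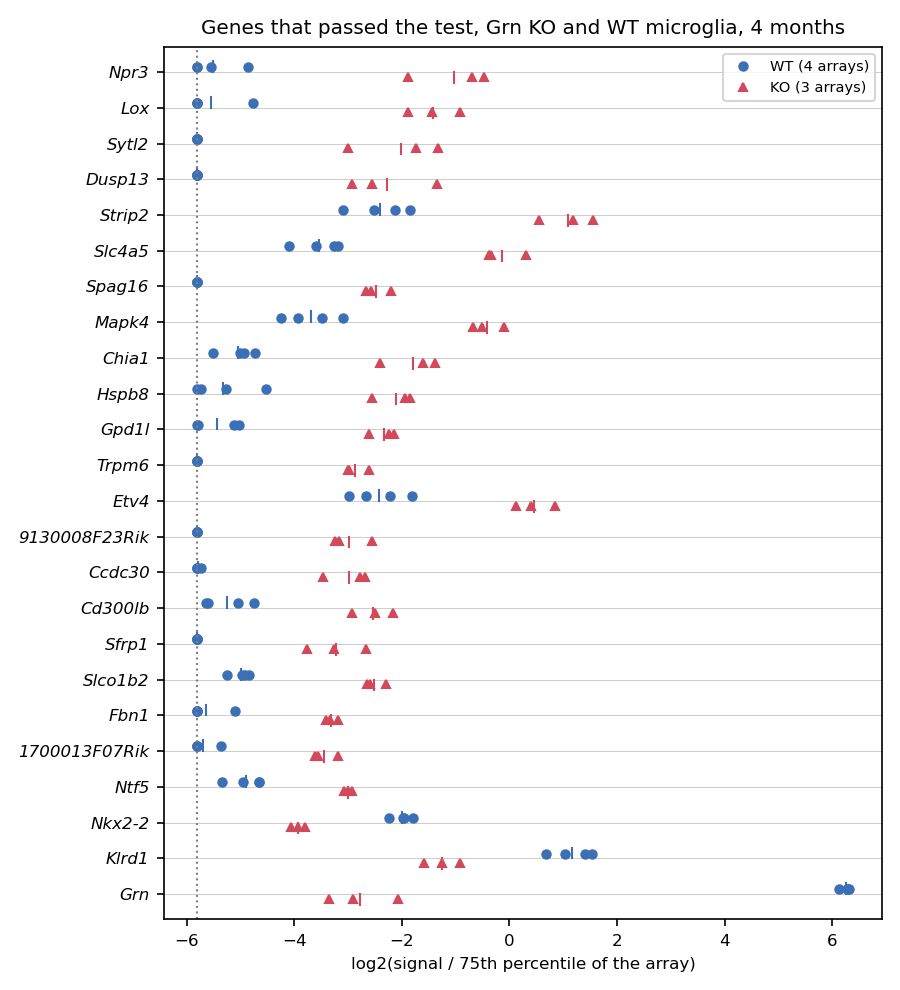
Levels of the 24 genes with a symbol that passed the test, ordered by difference. Points are arrays (circles WT, n = 4; triangles KO, n = 3), vertical ticks are group means, the x axis is log2 signal over the array's 75th percentile and the dotted line is the floor. Grn, Klrd1 and Nkx2-2 are lower on the KO arrays and the other 21 are higher, several with all WT points on the floor.

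The set of genes that separated the groups most completely was that of choroid plexus epithelium, the secretory layer that makes cerebrospinal fluid. All 18 markers on the list were measured, and every one of the 18 was higher on all 3 KO arrays than on all 4 WT arrays. Among all features that separation was seen in 5.31%, and 8.2% were lower on all KO arrays. The median difference of the 18 was 3.28 on the log2 scale (range 1.85 to 4.58), against -0.00145 over all features, and 1 of the 18 (Slc4a5) passed the test. All 18 stayed separated with any 1 array left out, as did all 17 measured on the 4 arrays with Y-linked transcripts and low Xist. Leaving out arrays cannot undo a separation of the same probe, so these counts do not test it. The number passing was 4 without WT replicate 2, 2 without KO replicate 3, 1 without WT replicate 3, and 0 without any of the other 4 arrays.

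The WT arrays were not free of these transcripts and differed among themselves. Ttr, the thyroxine carrier that choroid plexus secretes, read 5.44, 6.82, 5.90 and 3.23 on the WT arrays and 7.25, 8.0 and 7.88 on the KO arrays. The highest WT array, replicate 2, lay below the lowest KO array by less than the WT arrays spanned, and the difference of 2.36 did not pass (SE 0.78, adjusted p = 0.239). Kl, the klotho gene, read -3.57, -1.37, -2.79 and -4.99 on the WT arrays and 0.79, 0.52 and 1.59 on the KO arrays, a difference of 4.15 (SE 0.79, adjusted p = 0.135). Otx2, the homeobox factor of choroid plexus, read 0.07, 2.26, 0.30 and -0.89 on the WT arrays and 3.04, 3.22 and 3.58 on the KO arrays. Kcne2, a potassium channel subunit, showed the widest difference of the list, 4.58 (SE 1.43, adjusted p = 0.218), with WT replicate 4 at the floor. The summed level of the list was 59.2, 163.6, 79.3 and 15.8 on the WT arrays and 275.4, 367.5 and 428.0 on the KO arrays. Of the 18 markers 14 were above background on all 7 arrays, and the summed level ran in the order of WT replicates 4, 1, 3, 2 and then KO. Fewer cells of a type and less RNA for each cell cannot be told apart in such samples.

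**Figure D2:**
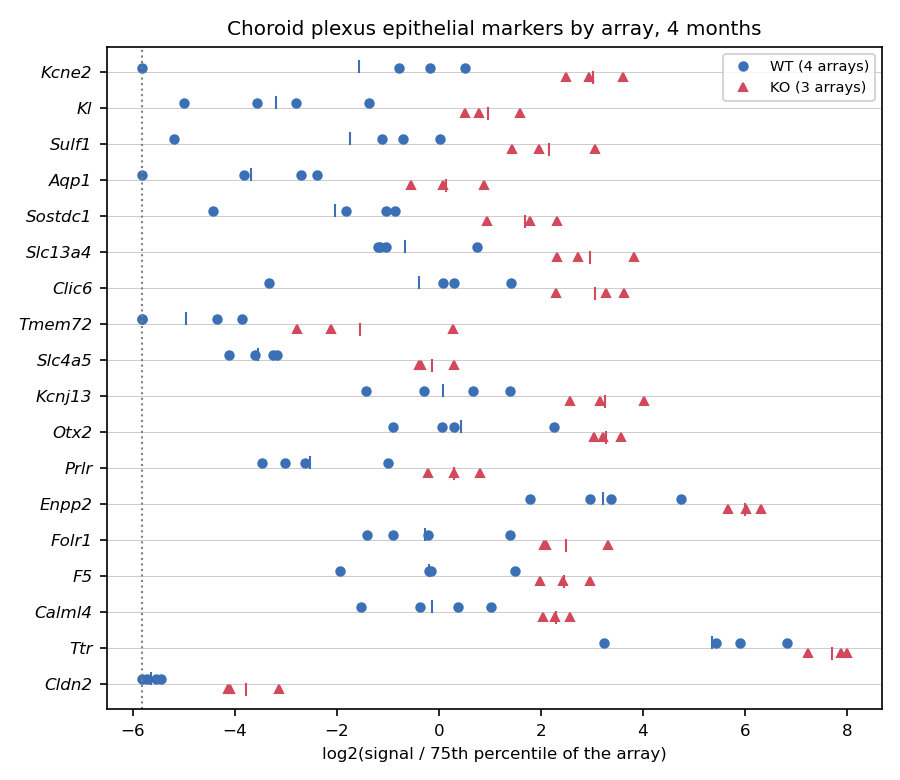
Levels of the 18 choroid plexus epithelial markers on the 4 WT arrays (circles) and 3 KO arrays (triangles), with group means as ticks and the floor as a dotted line, on log2 signal over the 75th percentile. For every gene the triangles lie to the right of the circles, and the lowest WT point is most often replicate 4.

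Ependymal cells, the ciliated lining of the ventricles, moved in the same direction on part of their list. Of 9 markers measured, 4 were higher on all KO arrays, none was lower on all of them, none passed the test, and the median difference was 1.52. Without WT replicate 2, and on the 4 arrays with Y-linked transcripts and low Xist, 7 of the 9 were higher on all KO arrays. The shares of all features were 8.03% and 24.2% there, and 5.31% with all arrays kept. Foxj1, the master factor of motile cilia, read -2.22, -2.15, -4.59 and -3.15 on the WT arrays and -0.43, -0.52 and -0.03 on the KO arrays (difference 2.70, SE 0.58, adjusted p = 0.135). Rsph1, a radial spoke protein, differed by 2.55 (SE 0.42, adjusted p = 0.11). Hydin and Spag17, also axonemal, differed by 0.27 and -0.02. The summed level of the list was 2.44 to 7.24 on the WT arrays and 7.96 to 12.0 on the KO arrays.

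Neutrophil granule genes were also higher on the KO arrays, although cells had been stained for Ly6G. S100a9, a calcium-binding alarmin, read 6.13, 4.50, 6.11 and 4.37 on the WT arrays and 6.99, 7.14 and 6.87 on the KO arrays (difference 1.72, SE 0.50, adjusted p = 0.192). S100a8 differed by 1.91, Camp by 1.72 and Lcn2 by 1.72, all 3 with no overlap, while Mpo and Prtn3 differed by 0.30 and 0.18 with overlap. Of 12 markers measured, 4 were higher on all KO arrays and none passed, and 6 separated upward without WT replicate 1 or 3. Of all features 5.31% were higher on all KO arrays, 7.68% without WT replicate 1 and 6.96% without WT replicate 3. On the 4 arrays with Y-linked transcripts and low Xist 8 of the 12 were higher on both KO arrays, against 24.2% of all features. The summed level was 180 to 281 on the WT arrays and 341 to 404 on the KO arrays. Among 9 monocyte markers 2 were higher on all KO arrays, Chil3 (by 1.92) and Ifitm6 (by 2.10), and Ccr2 differed by -0.24. The 8 of them with a value on every array summed to 4.65 to 15.4 on the WT arrays and 18.8 to 42.4 on the KO arrays.

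Markers of other brain cells showed smaller differences. Of 10 neuronal markers 9 were lower in KO on average, with a median of -0.50, yet none separated the groups, and their summed level was 31.8 on WT replicate 2 against 7.21 to 13.6 on the other arrays of both groups. Endothelial markers had a median of -0.40, or 0.31 on the 4 arrays with Y-linked transcripts and low Xist, and summed to 35.7 and 49.8 on WT replicates 1 and 2 against 12.0 to 25.4 elsewhere. Among astrocyte markers Aqp4 was lower on all KO arrays (-1.50) and Aldh1l1 and Sox9 were higher (1.24 and 2.61). In the macrophages of the brain's borders, 2 of 11 markers, Mrc1 and Ms4a7, were higher on all KO arrays, by 1.94 and 2.97, against 5.31% of all features. Markers of oligodendrocytes, T and natural killer cells, B cells, mast and dendritic cells and red blood cells had medians between -0.28 and 0.79. The 5 B cell markers measured summed to 9.15 to 10.5 on the WT arrays and to less, 4.96 to 8.59, on all KO arrays. The part that other cell types have in the differences of single genes was not tested.

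**Figure D3:**
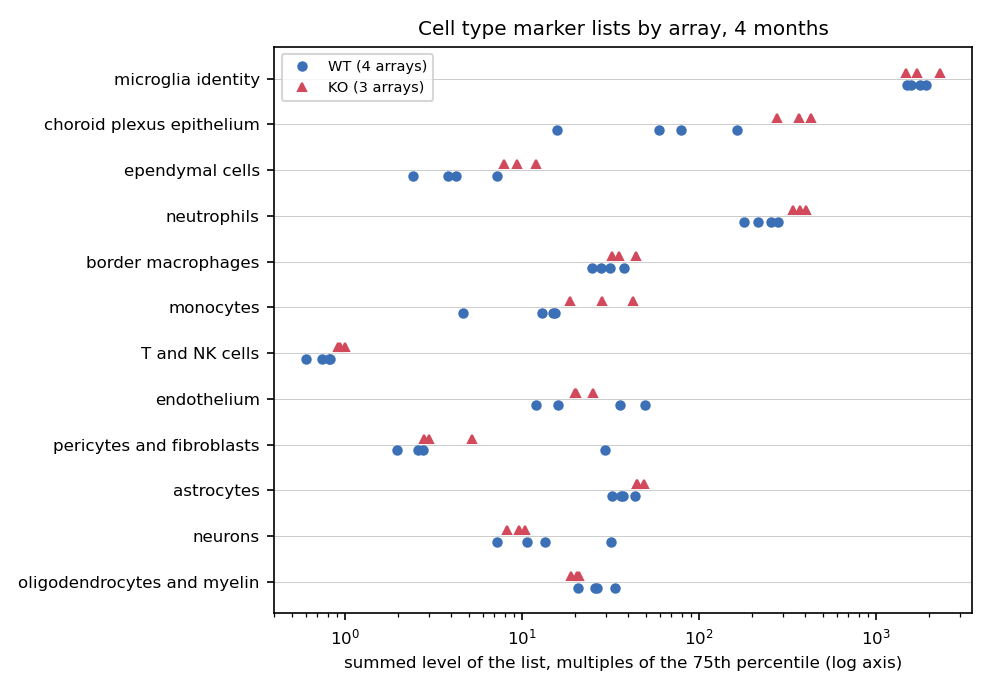
Summed level of 12 cell type marker lists on each array, in multiples of the array's 75th percentile on a log axis (circles WT, n = 4; triangles KO, n = 3). The sum of the microglial list overlaps between groups. The sums of the choroid plexus, ependymal, neutrophil, monocyte, T and NK cell and astrocyte lists are higher on all 3 KO arrays. For astrocytes the gap is narrow, 44.7 against 43.6, and by single genes 5 of the 12 markers are higher and 7 lower in KO on average. Of the monocyte markers 2 of 9, and of the T and NK cell markers 1 of 6, are higher on all KO arrays, against 5.31% of all features. WT replicate 2 is the single high point of the pericyte list.

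Homeostatic genes of microglia, which mark the resting state of the cell, were close to equal. None of the 20 passed the test, 1 of the 20 separated the groups, and the median difference was 0.08 (range -1.32 to 0.30). On the 4 arrays with Y-linked transcripts and low Xist 9 of the 20 were higher and 2 lower on both KO arrays. Of all features 24.2% were higher and 19.4% lower there, and 5.31% and 8.2% with all arrays kept. Without KO replicate 2 the median was -0.08 and 5 of the 20 were lower on both remaining KO arrays, against 12.8% of all features in that fit. Tmem119 read 7.49, 7.52, 7.17 and 7.33 on the WT arrays and 7.12, 7.46 and 7.31 on the KO arrays. P2ry12, the ADP receptor that guides process movement, read 7.48, 7.36, 7.25 and 7.40 on the WT arrays and 7.19, 8.0 and 7.12 on the KO arrays. Cx3cr1, the fractalkine receptor, differed by 0.10 (SE 0.24), and Csf1r, the receptor microglia need to survive, by 0.22 (SE 0.27). The ranges of all 4 overlapped between groups. The member that separated them was Slc2a5, a fructose transporter, lower on all KO arrays by 0.39 (SE 0.17, adjusted p = 0.361).

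Genes of the disease-associated state, the programme that microglia adopt near plaques and damaged myelin, were higher on the KO arrays in part. Of 23 members measured, 10 were higher on all KO arrays, none was lower on all of them, none passed the test, and the median difference was 0.64 (range -1.06 to 4.16). On the 4 arrays with Y-linked transcripts and low Xist 17 of the 23 were higher on both KO arrays. The share of all features was 24.2% there and 5.31% with all arrays kept. Without KO replicate 3, with its 483 features passing, 5 of the 23 did, and 3 did (Apoe, Lgals3 and Fabp5) with normexp background correction or with a variance trend in the model. Apoe, the lipoprotein that carries cholesterol, read 4.33, 4.40, 4.01 and 3.80 on the WT arrays and 6.12, 5.76 and 5.98 on the KO arrays. The groups stood 1.82 apart (SE 0.22), which missed the threshold at an adjusted p of 0.0504. Lgals3, the lectin galectin-3 that binds damaged lysosomes, read 1.05, 0.88, 0.88 and 0.24 on the WT arrays and 3.03, 2.61 and 3.12 on the KO arrays (difference 2.15, SE 0.26, adjusted p = 0.0504). Fabp5, a fatty acid carrier, differed by 1.75 (SE 0.23, adjusted p = 0.0627).

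Of the remaining members of that programme some separated the groups and others overlapped. Cst7, a cystatin that inhibits cathepsins, read 2.30, 2.06, 1.95 and 1.67 on the WT arrays and 3.54, 4.18 and 3.08 on the KO arrays (difference 1.61, SE 0.30, adjusted p = 0.131). Gpnmb, a lysosomal glycoprotein, was at the floor on 3 WT arrays and at -3.93 on WT replicate 4, and read -0.53, 0.42 and -3.41 on the KO arrays (difference 4.16, SE 0.93, adjusted p = 0.137). Igf1, a growth factor, read -3.46, -0.73, -2.24 and -4.29 on the WT arrays and 2.24, 1.09 and 0.96 on the KO arrays (difference 4.11, SE 0.82, adjusted p = 0.135), and all 4 of its probes were higher in KO. Itgax, Cd63, Ank and Cd83 separated the groups with differences of 1.50, 0.66, 0.64 and 0.57. Trem2, the lipid receptor upstream of the programme, differed by -0.01 (SE 0.19), its adaptor Tyrobp by 0.29 (SE 0.22), the lipase Lpl by 0.17 (SE 0.26) and Spp1, osteopontin, by 1.22 (SE 0.75), all with overlap. Beside these values stand those of choroid plexus epithelium and neutrophils given above, which were higher on the same 3 arrays. Their part in this list was not tested.

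**Figure D4:**
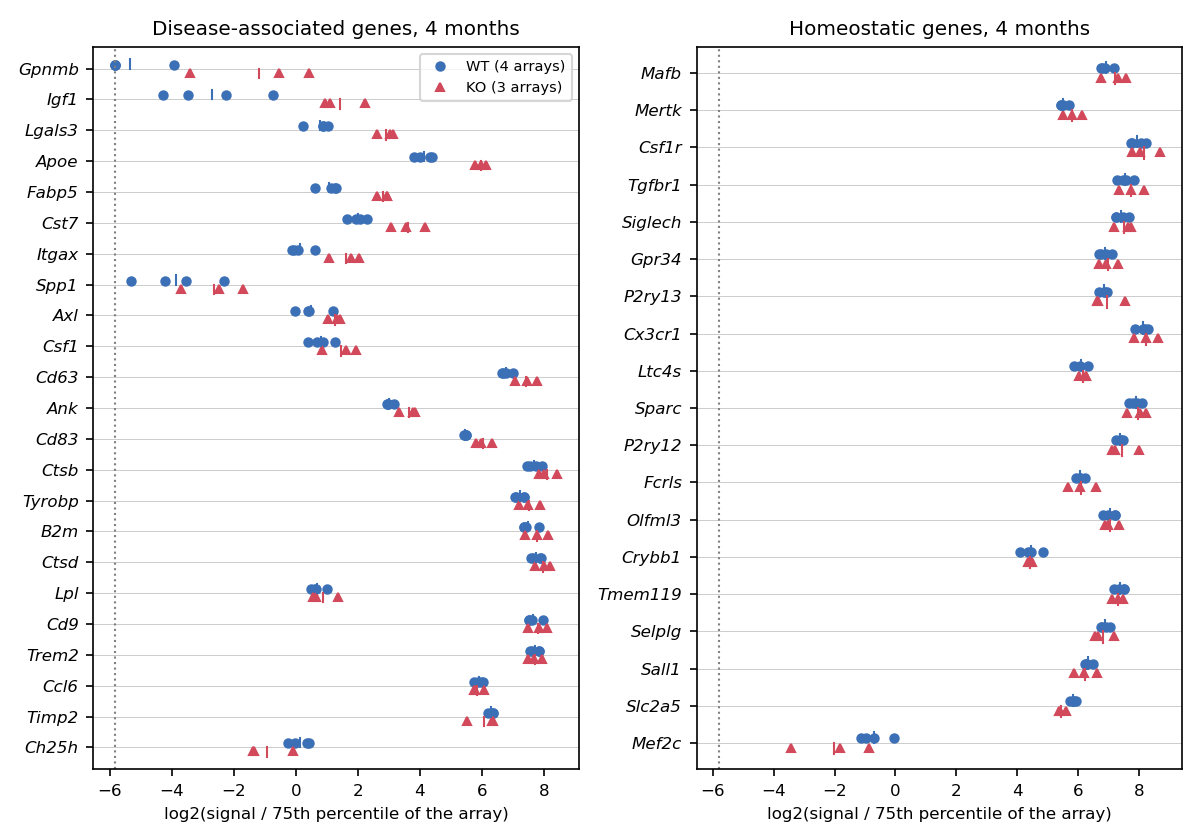
Levels of the 23 disease-associated genes (left) and of homeostatic genes (right) on the WT arrays (circles) and KO arrays (triangles), as log2 signal over the 75th percentile, with group means as ticks and the floor as a dotted line. Gpnmb, Igf1, Lgals3, Apoe, Fabp5, Cst7 and Itgax separate at the top left, whereas the homeostatic genes overlap except Slc2a5.

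The series concerns complement, a cascade in which C1q tags synapses or debris and C3 fragments are read by receptors on microglia. None of 24 complement genes measured passed the test, and the median difference was 0.09. On all KO arrays 4 were higher and 1 lower, against 5.31% and 8.2% of all features. Without KO replicate 3, 6 were higher on both remaining KO arrays, against 10.8% of all features, and C3 was among the 483 features that then passed, and without KO replicate 2 the median was -0.05. The C1q chains did not separate: C1qa read 7.40, 7.32, 7.40 and 7.08 on the WT arrays and 7.16, 6.22 and 7.36 on the KO arrays (difference -0.39, SE 0.30). C1qb differed by -0.23 (SE 0.24) and C1qc by 0.07 (SE 0.22). C3, the central component, read -0.73, -0.74, -1.22 and -1.43 on the WT arrays and 1.07, 0.61 and 0.15 on the KO arrays. Its groups did not overlap, with a difference of 1.64 (SE 0.30, adjusted p = 0.128), and both of its probes were higher in KO. Itgax, a chain of complement receptor 4, differed by 1.50 (SE 0.30, adjusted p = 0.135), C2, a protease of the classical pathway, by 3.08 (SE 0.77, adjusted p = 0.151) and Cd59a, an inhibitor of the membrane attack complex, by 2.82 (SE 0.82, adjusted p = 0.189). Itgam, a chain of complement receptor 3, differed by -0.03 (SE 0.21) and C4b by -0.14 (SE 0.62). C1s2 was the member lower on all KO arrays (-1.31).

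Lysosomal genes showed small differences that were more often positive than negative. Of 33 hydrolases and their activators 25 were higher in KO on average, against 49.8% of all features, 9 were higher and 1 lower on all KO arrays, and none passed (median 0.22). On the 4 arrays with Y-linked transcripts and low Xist 14 of 32 were higher and 3 lower on both KO arrays. Of all features 24.2% were higher and 19.4% lower there, and 5.31% and 8.2% with all arrays kept. The largest differences among those that separated were in Acp5 (1.34), Galc (1.23), which degrades myelin galactolipid, and Asah1 (0.76), the acid ceramidase. Gaa, the acid glucosidase, differed by 0.61 and Npc2, the lysosomal cholesterol carrier, by 0.53 (SE 0.22, adjusted p = 0.337). Of 16 subunits of the proton pump 15 were higher in KO on average, 5 on all KO arrays (Atp6v0c by 0.75, Atp6v1c1 by 0.72), with a median of 0.32. The exception was Atp6v0a2, lower on all KO arrays by 1.03 (SE 0.32, adjusted p = 0.213). Cathepsins Ctsb, Ctsd and Ctsl differed by 0.41, 0.22 and 0.15 and Lamp1 by 0.29, all with overlap. The 22 lysosomal membrane genes had a median of 0.12 and the 22 genes of autophagy and its TFEB regulators one of 0.15, none passing in either list.

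Of 14 genes tied to progranulin or to frontotemporal dementia, 11 were higher in KO on average, against 49.8% of all features, with a median of 0.20. On all KO arrays 2 were higher and none lower, against 5.31% and 8.2% of all features. Sort1, the sortilin receptor, differed by 0.12 (SE 0.19), Psap, prosaposin, by -0.20 (SE 0.46) and Tmem106b, a modifier of progranulin disease, by -0.08 (SE 0.32). Slpi, the inhibitor that shields progranulin from cleavage, read -4.35, -3.72, -2.96 and -4.99 on the WT arrays and -0.27, -0.69 and -0.29 on the KO arrays. Its groups lay 3.59 apart (SE 0.46), with an adjusted p of 0.055. Igf2r, the mannose 6-phosphate receptor, was higher on all KO arrays by 1.61 (SE 0.39, adjusted p = 0.147). None of the 14 passed.

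In lipid handling, 6 of 25 genes were higher and 1 lower on all KO arrays, against 5.31% and 8.2% of all features. None of the 25 passed, and the median was 0.09. Besides Apoe and Fabp5, the 6 comprised Fabp3 (2.76, SE 0.43, adjusted p = 0.108), Vldlr (1.68), Npc2 and Plin3 (0.51). Of 24 genes of cholesterol synthesis 4 were higher on all KO arrays, led by Dhcr7 (1.06) and Srebf2 (0.81), with a median of 0.12. Of 18 glycolytic genes 16 were higher in KO on average and 7 on all KO arrays, led by Pfkp (1.23), Pgk1 (0.97) and Tpi1 (0.75). The median of the 18 was 0.31 and none passed. On the 4 arrays with Y-linked transcripts and low Xist 12 were higher on both KO arrays, against 24.2% of all features. Of 20 genes of iron storage and antioxidant defence 4 were higher on all KO arrays, among them Tfrc (0.94) and Hmox1 (0.77).

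Inflammatory mediators differed gene by gene. Il1b read 1.89, 0.59, 0.49 and 1.82 on the WT arrays and 2.66, 2.50 and 2.68 on the KO arrays (difference 1.41, SE 0.40, adjusted p = 0.184). The chemokines Ccl7, Ccl3 and Ccl4 were higher on all KO arrays by 1.26, 1.11 and 0.50, and Cxcl1 was lower on all of them by 1.26. So 4 of 21 cytokines were higher and 1 lower, with none passing. For this and the counts below, 5.31% of all features were higher and 8.2% lower on all KO arrays. Of 23 interferon response genes 15 were lower in KO on average and none separated the groups. Their median was -0.16, but 0.08 without WT replicate 1, 0.01 without KO replicate 3 and 0.28 on the 4 arrays with Y-linked transcripts and low Xist. Ifi44 had the largest difference of that list, -1.66 (SE 0.44, adjusted p = 0.165). Of 12 genes of MHC class II presentation 1 was higher on all KO arrays, Toll-like receptors had a median of 0.01, and phagocytic and Fc receptors one of -0.01. Of 18 cell cycle genes 3 were higher on all KO arrays, Ccna2 by 1.52 (SE 0.44, adjusted p = 0.192).

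Among receptors and ligands of the TGF-beta family, which microglia need for their identity, 3 of 27 were higher and 3 lower on all KO arrays. None passed (median -0.03), and of all features 5.31% were higher and 8.2% lower on all KO arrays. Acvr1c, the activin receptor ALK7, read -2.06, -1.74, -1.49 and -2.29 on the WT arrays and -5.81, -3.54 and -4.82 on the KO arrays. It differed by -2.83 (SE 0.51, adjusted p = 0.128), though a second Acvr1c probe was higher in KO. Tgfbr3 and Tgfb2 were higher on all KO arrays, by 2.50 and 2.10. Of the 5 natriuretic peptide genes measured Npr3 was the one that rose, while the ligand Nppa differed by -1.54 and the receptor Npr2 by 0.54, both with overlap.

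Large differences without a call were found among genes well above background on all 7 arrays. Besides Kl and Igf1, those that separated the groups most widely upward were Igfbp2 (4.12, SE 1.19), which binds insulin-like growth factors, Bcar3 (4.02, SE 0.93), Sema3b (3.91, SE 1.06), a semaphorin, and Sulf1 (3.90, SE 1.20), a heparan sulfatase of the choroid plexus list. Downward, after Grn and Klrd1, they were Cyp2a12 (-2.57, SE 0.67), Elavl4 (-2.49, SE 0.62), Cyp2c23 (-2.30, SE 0.52) and Myl9 (-2.29, SE 0.98). Their adjusted p lay between 0.135 and 0.361 and thus none of these 10 passed. Myl9 read 3.69 on WT replicate 2 against -0.70 to 0.05 on the other WT arrays, so its difference leans on that array. Zfp459, a zinc finger gene, was at the floor on 3 WT arrays and -4.06 on WT replicate 4, and read -1.94, -1.46 and -2.76 on the KO arrays (difference 3.32, SE 0.52, adjusted p = 0.109).

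The change at 4 months was also set against the change between the 8 microglia arrays of 16-month-old KO and WT mice, in a model of all 4 groups that tests the difference of the changes. That difference passed for 13.4% of features. The 16-month signals were processed by the scanner without the correction for spatial trend that the 4-month signals had, and their headers give another barcode and scan, so age cannot be told apart from either. At 16 months the KO arrays also had fewer spots well above background (54.9% to 63.6%, against 65.4% to 70.5% on WT). A spike-in control probe read -3.22 to -1.09 on those KO arrays and 1.21 to 4.12 on the WT arrays, while the other 2 spike-in probes above background on all 8 overlapped. The part of these in the 16-month changes was not tested. Homeostatic genes, level at 4 months, had a median of -2.84 at 16 months, and the difference passed for 12 of 20, among them Tmem119 (-3.69, adjusted p = 0.00941) and Cx3cr1 (-4.42, adjusted p = 0.0249). The disease-associated list had medians of 0.64 at 4 and -0.30 at 16 months, and the difference passed for 2 of 23, Itgax (-4.31, adjusted p = 0.0031) and Fabp5 (1.91, adjusted p = 0.0262). C3 stood 1.64 higher in KO at 4 months and 0.98 lower at 16 months (difference -2.62, adjusted p = 0.0101). Choroid plexus markers had medians of 3.28 and 2.16, and the difference passed for none of the 17 tested.

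**Figure D5:**
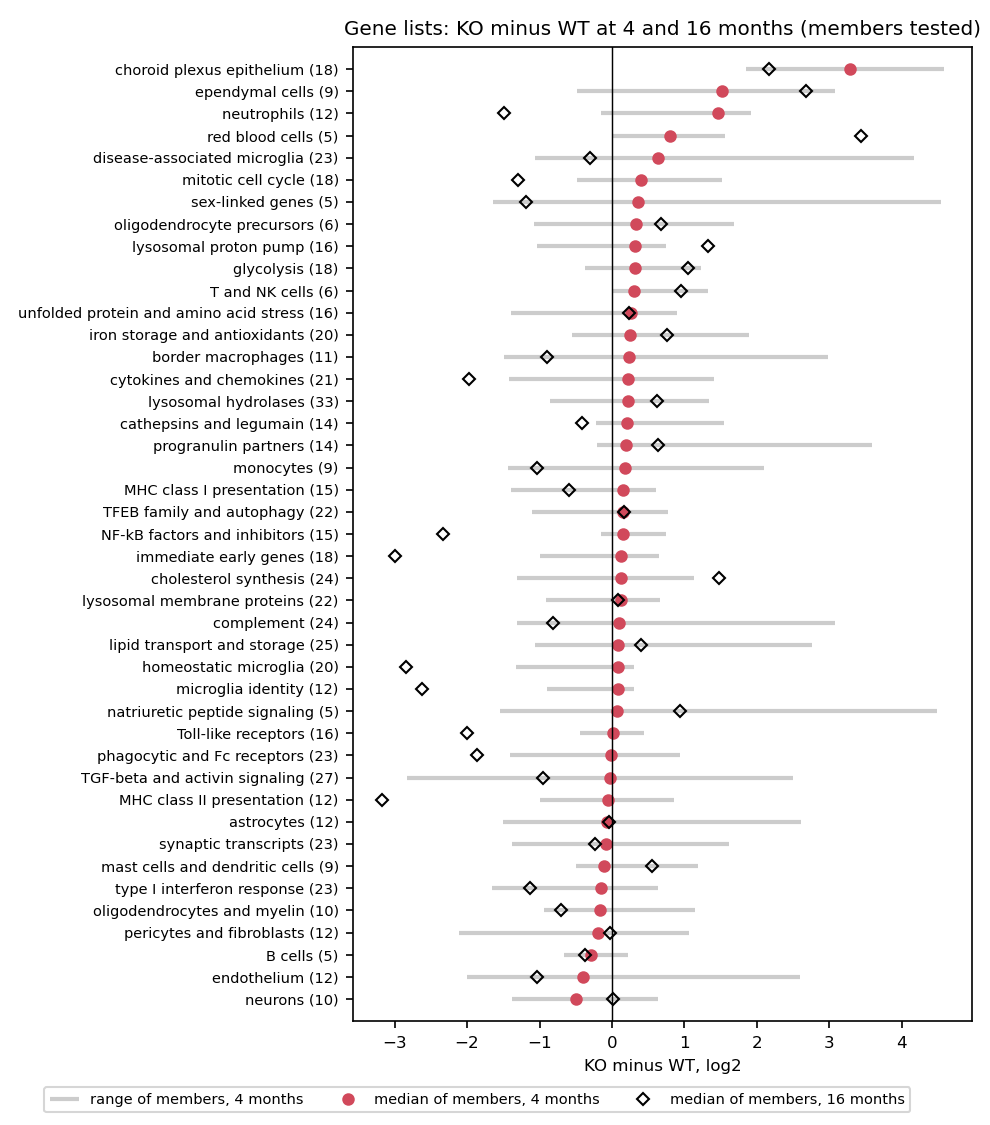
KO minus WT difference (log2) of each gene list with at least 5 members measured, number measured in brackets. Filled circles are medians at 4 months with the range of members as a grey bar, and open diamonds are medians at 16 months. At 4 months most medians lie within 0.5 of 0, with choroid plexus, ependymal, neutrophil, red blood cell and disease-associated lists furthest to the right.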

How the data were processed

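The arrays were Agilent single-color mouse arrays, 1 scanner file for each sample. Per the file headers, the deposited intensity is the processed signal, background-subtracted and, at 4 months, corrected for spatial trend. The submitters' processing notes name Agilent Feature Extraction and R 2.15.3, and no further step of theirs was used. Control spots were left out, spots of a probe averaged, and signals divided by the array's 75th percentile, floored and taken as log2. The probe with the highest mean stood for its gene if well above background on at least 3 of the 7 arrays. Probes were named through their accession and RefSeq or gene name tables. limma 3.58.1 in R 4.3.3 fitted 1 mean for each group (eBayes, two-sided, Benjamini-Hochberg adjustment over all features, threshold 0.05). For the test of the difference between ages, 16-month WT replicates 1 and 2, and 3 and 4, which differed by less than repeat spots, counted as 1 sample each. The model was tested on simulated data.

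Members and lists were chosen with earlier results of these data known. Named are all genes with a symbol that passed, the widest separated differences among genes above background on all arrays, the largest differences in each list and a fixed set of microglial, complement and progranulin genes. Alternatives changed the background correction, normalization, percentile, filter, floor, probe choice, arrays fitted, weights, variance trend and replicate block, and left out each array. Normexp was run on the median signal in place of the mean signal. A member of these lists is not reported here by name. The number of arrays limits the precision.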

Additional observations from a re-analysis of the deposited data

Results flagged for a closer look

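In the WT group, 6 of the 91 sets of 4 values examined had 1 array far from the other 3, and chance alone marks about 1 in 20 such sets. Bcar3 read -5.53 on WT replicate 3, below the other WT arrays, and without that array its rise passed the test. Myl9 read 3.69 on WT replicate 2, above the others. The summed level of cytokines and chemokines was 341.2 on WT replicate 1, and that of MHC class I presentation 664.5 on the same array. Synaptic transcripts summed to 41.8, and pericyte and fibroblast markers to 29.7, on WT replicate 2.

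For 12 of 72 genes named at 4 months the difference between KO and WT was not the same at both ages by the test of the difference itself. Of all features 13.4% passed that test, not far from the share of the named genes. Genes named only for a large difference within their list were not among the 72. One of those was Fabp5, whose positive difference between ages passed, as given above. The change at 16 months minus that at 4 months was -4.42 for Cx3cr1, -3.69 for Tmem119, -2.98 for Csf1r and -2.90 for C1qc, 4 genes of microglial identity or C1q that were level at 4 months. It was -4.31 for Itgax, -2.62 for C3 and -1.98 for Sort1. Among the genes that rose at 4 months it was -4.03 for Lox, -3.37 for Trpm6 and -2.41 for AK042795. These were named for a rise on the same 4-month arrays, a choice that favors a negative value here. Trpm6 and AK042795 also met the 4-month filter through the KO arrays alone. It was -3.08 for Zfp459 and -4.15 for the Y-linked gene Kdm5d. The 2 ages also differ in the scanner's trend correction and in barcode and scan, as given above.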

How the results depend on the processing

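The count of features passing at 4 months, 29, was 52 with normexp and 52 with a variance trend, 8 without a filter, 5 with only probes above background on all 7 arrays, 8 in the model of all 4 groups (3 of the 29 among them), and between 3 and 483 without any 1 array. On the 4 arrays with Y-linked transcripts and low Xist it was 0 by limma (2317 at an unadjusted p under 0.05), and Grn itself did not pass. With the replicate number as a block the count was also 0 by limma, and Grn again did not pass (2931 at an unadjusted p under 0.05). That fit also left out WT replicate 4, which has no KO array of its number. Without that array and with no block the count was 3, so the effect of the block alone was not tested. WT and KO arrays of the same number had deviations correlated at -0.0319, -0.0323 and -0.0299 over all features. Such a correlation cannot show an effect of the number limited to some genes, which was not tested. Median signal, quantile normalization, another percentile, a higher floor, all probes and array weights gave 23 to 35. Every gene that passed kept its direction in every setting that tested it, and Grn was the 1 gene that passed without any single array. Over single named genes and settings at 4 months, 3435 comparisons with the main result left its call as it was, 257 lost it and 28 gained it, and of the list medians 407 stayed within the arrays' spread and 13 moved further. The median of 22 of 43 lists changed sign in at least 1 setting, whereas those of choroid plexus, ependymal, neutrophil, disease-associated, lysosomal hydrolase, proton pump and glycolysis genes did not. The count for the difference between ages, 4264, was 4697 with quantile normalization and 3993 on the median signal. The causes of these shifts were not tested. Probes near the floor limit the folds to lower bounds.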

Other observations

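Spike-in control probes read labelling and scaling rather than the cells. Of the spike-in probes, 3 were well above background on all 7 arrays. Their mean log2 level over the 75th percentile was -1.79, -1.40, -1.72 and -1.49 on the WT arrays and -2.24, -2.37 and -2.07 on the KO arrays. The KO arrays lay 0.626 lower (exact two-sided permutation test, p = 0.029, the smallest that 4 against 3 arrays allow), and all 3 probes were lower in KO on average, 1 of them without overlap. Scaling to these probes was not run.

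The first principal component of the 7 arrays held 28.8% of the variance and set all WT arrays on one side of 0 and all KO arrays on the other. KO replicate 2 stood apart on it, at 107.4 against 38.85 and 40.06 for KO replicates 1 and 3. That array also had the lowest 75th percentile of signal of the 7 (1072, against 1306 to 1752). Its share of spots well above background was the smallest as well (67.1%, against 70.4% to 76.9%). The part of these in its position was not tested. The Y-linked gene Kdm5d did not follow Eif2s3y, its probe being lower on all KO arrays by 1.28. The E-box CACGTG, the core of the TFEB site, was found in at least 1 window of 6 of 27 lysosomal hydrolase genes (22.2%). The share among all genes with a window was 8.1%, which describes letters and not binding.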
